A study of Danio rerio with 2 samples.

Results

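Cathepsins are the proteases that digest proteins inside lysosomes. Most belong to the papain family of cysteine proteases, while cathepsin D is an aspartic protease and cathepsin A a serine carboxypeptidase. They are made as inactive precursors, sorted to the lysosome through mannose 6-phosphate receptors and other receptors, and matured by cleavage. Those of the papain family are held in check by cystatins. In the fish larva cathepsins are known from yolk breakdown and from the gut cells that take up and digest whole proteins. They are also known from macrophages and from the hatching gland.

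The cathepsin genes described here are the rows of the deposited table whose symbol starts with lower-case cts followed by a letter and whose mean over both libraries was at least 1 FPKM. This gave 15 genes out of 20 rows with such a symbol and out of 33733 rows in all. FPKM is a fragment count scaled to transcript length and to the size of the library, so levels can be set side by side between genes per length. The study compared homozygous lri35 mutant zebrafish larvae with their wild-type siblings of the same clutch, all of AB/TL background and 5 days post fertilization. Each genotype was 1 library of total RNA from the whole bodies of 20 pooled larvae, 1 library in the mutant and 1 in wild type. The sample labels write the allele as lir35. They do not name the gene it affects, so no check of the genotypes by its level was possible.

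With 1 library per genotype there is no replicate check, so no test across samples was possible and every difference is one between these 2 libraries. In such bulk RNA, fewer cells of a type and less RNA per cell cannot be told apart. The deposited FPKM summed to 874244 in the mutant library and 875340 in the wild-type library, with 22504 and 22106 rows above 0. Absolute depth is unknown. Rows above 0 in both libraries and averaging at most 0.3 FPKM put the mutant library at about 1.27 times the wild-type depth. This holds only if such rows carry like fragment numbers in both libraries, which could not be checked without counts. Across the 19327 rows with a mean of at least 1 FPKM, the median log2 difference was -0.01 and 95% of the rows lay between -1.12 and 1.07.

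The cathepsin genes did not move as a block. By plain ratio ctsbb was 5.20-fold, ctskl 4.29-fold and ctsl.1 2.47-fold lower in the mutant library. The next lowest, ctssb.2, was 1.80-fold lower. By contrast ctsba, ctsd and ctsf stood at nearly the same level in both libraries. The most abundant, ctsla, was 1.18-fold higher in the mutant. Differences were taken as log2((mutant FPKM + 1)/(wild-type FPKM + 1)), which understates the change of low genes, and a gene was counted as lower or higher when this reached 2-fold. By that rule 3 of the 15 genes were lower and 0 were higher in the mutant library. Of all rows at or above 1 FPKM on average, 3.22% were lower and 2.95% higher by the same rule. All 15 cathepsin genes averaged at least 5 FPKM, and among the rows at that level 1.71% were lower and 1.37% higher. Of the 15 genes 12 lay below 0, against 50.9% of all rows and 49.1% of those averaging at least 5 FPKM. The 12 include ctsba (-0.03), ctsz (-0.009) and ctsc (-0.0001), which lay very near 0. These changed sign when levels were rescaled to totals without the 50 most abundant rows. The median log2 difference of the 15 was -0.11, against 0.01 for the rows averaging at least 5 FPKM. On the log2(FPKM + 1) scale a difference of less than 1.2-fold was found for 8 of the 15. That compares with 52.7% of all rows and 60.6% of those averaging at least 5 FPKM. The 8 include ctsa, which was 1.21-fold higher in the mutant by plain ratio.

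**Figure D1:**
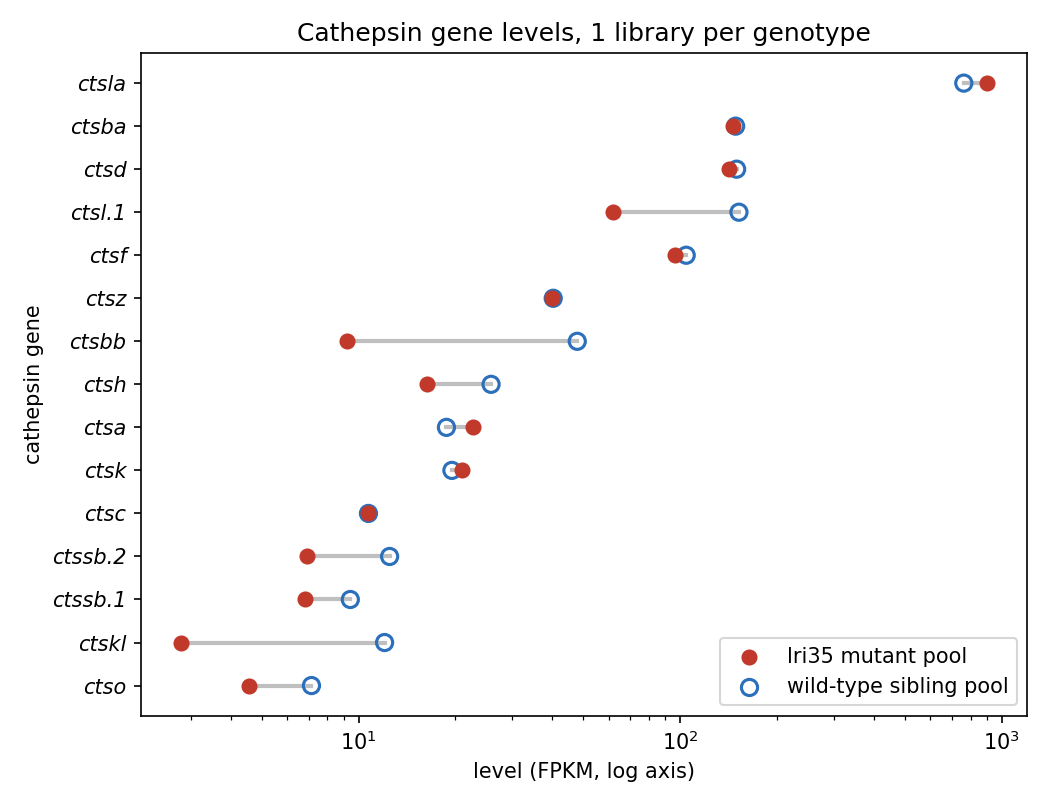
Level of each of the 15 cathepsin genes in FPKM on a log axis, with filled points for the lri35 mutant pool and open circles for the wild-type sibling pool, 1 library each. The widest gaps are those of ctsbb (9.21 FPKM in the mutant, 47.9 in wild type), ctskl (2.81 and 12.04) and ctsl.1 (61.7 and 152), while ctsz and ctsc coincide.

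Cathepsin B is a lysosomal cysteine endopeptidase that can also trim dipeptides from the carboxyl end of its substrates. By deposited name, the zebrafish table holds a pair of cathepsin B genes. The ID of ctsbb was not in a current gene name table, so its place beside ctsba rests on the deposited name. The gene ctsbb stood at 9.21 FPKM in the mutant library and at 47.9 FPKM in the wild-type library, a level 5.20-fold lower in the mutant with a log2 difference of -2.26. It had the lowest difference of the 15, and 66 of the 19327 rows had a lower one. Its partner ctsba stood at 146 FPKM in the mutant and 149 FPKM in wild type, a log2 difference of -0.03. The level of ctsbb was thus 6.32% of that of ctsba in the mutant library and 32.2% in the wild-type library. The ctsbb row (ENSDARG00000067570) spans 53520838 to 53536911 on Zv9 chromosome 20, and no other row of the table overlaps it. The ctsba row shares its deposited region on chromosome 17 with CGREF1, so reads could have been divided between these genes.

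Cathepsin L is a strong lysosomal endopeptidase and was the most abundant family here. The gene ctsla (ctsl1a among its RefSeq synonyms) stood at 901 FPKM in the mutant library and at 762 FPKM in the wild-type library, 1.18-fold higher in the mutant. It ranked 161st among all rows by level in the mutant and 189th in wild type. The second gene, ctsl.1, stood at 61.7 FPKM in the mutant and at 152 FPKM in wild type, 2.47-fold lower in the mutant with a log2 difference of -1.29. In wild type ctsl.1 was at about the level of ctsba and ctsd, and in the mutant it was below both and below ctsf. Its level was 6.84% of that of ctsla in the mutant library and 20.0% in the wild-type library. The ctsl.1 row (ENSDARG00000003902) spans 27315724 to 27320151 on Zv9 chromosome 17 and overlaps no other row.

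Cathepsin K is the collagen-degrading protease of mammalian osteoclasts. The gene ctsk stood at 21.0 FPKM in the mutant library and 19.5 FPKM in the wild-type library, a log2 difference of 0.10. The gene named ctskl in the deposited table stood at 2.81 FPKM in the mutant and 12.04 FPKM in wild type, 4.29-fold lower in the mutant with a log2 difference of -1.78. It had the second lowest difference of the 15. A current gene name table calls the ID of ctskl cts12, so its place beside ctsk rests on the deposited name. The ctskl row (ENSDARG00000042753) spans 16628895 to 16638405 on Zv9 chromosome 22, and no other row overlaps it. Its level in the mutant library was the lowest of all 15 genes there.

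Cathepsin S is known in mammals for cutting the invariant chain of MHC class II in antigen-presenting cells. The genes ctssb.1 and ctssb.2 lie next to each other and to ctsk on Zv9 chromosome 16, within 31753227 to 31790653, with 1037 bases between the 2 cathepsin S rows. The gene ctssb.2 stood at 6.92 FPKM in the mutant library and 12.5 FPKM in the wild-type library, a log2 difference of -0.77. The gene ctssb.1 stood at 6.83 FPKM in the mutant and 9.42 FPKM in wild type, a log2 difference of -0.41. Both were thus lower in the mutant without reaching 2-fold, while their neighbour ctsk was not lower. The ctssb.2 row shares its deposited region with onecutl and si:dkey-30o16.8, so its reads could have been divided between these genes.

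The cathepsins that trim peptide ends differed among themselves. Cathepsin H acts mainly as an aminopeptidase, and ctsh stood at 16.3 FPKM in the mutant library and 25.8 FPKM in the wild-type library, 1.59-fold lower in the mutant. Cathepsin Z is a carboxypeptidase, and ctsz stood at 40.03 FPKM in the mutant and 40.3 FPKM in wild type. Cathepsin C, the dipeptidyl peptidase that activates granule proteases of mammalian immune cells, had its gene ctsc at 10.7 FPKM in both libraries. The less studied papain-family gene ctso stood at 4.54 FPKM in the mutant and 7.13 FPKM in wild type, 1.57-fold lower in the mutant. Its relative ctsf was far more abundant, at 96.5 FPKM in the mutant and 104 FPKM in wild type, a log2 difference of -0.11.

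The cathepsin genes outside the papain family that met the rule lay within 2-fold. Cathepsin D is the main aspartic protease of the lysosome, and ctsd stood at 142 FPKM in the mutant library and 149.8 FPKM in the wild-type library, a log2 difference of -0.08. Cathepsin A protects lysosomal beta-galactosidase and neuraminidase in a complex besides acting as a carboxypeptidase. Its gene ctsa stood at 22.7 FPKM in the mutant and 18.8 FPKM in wild type, a log2 difference of 0.26, the highest of the 15. A further row of that name, CTSA (1 of 2), was outside the rule and 1.60-fold lower in the mutant. The genes counted as lower thus all came from the 13 papain-family members. The difference between the protease types was not tested.

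**Figure D2:**
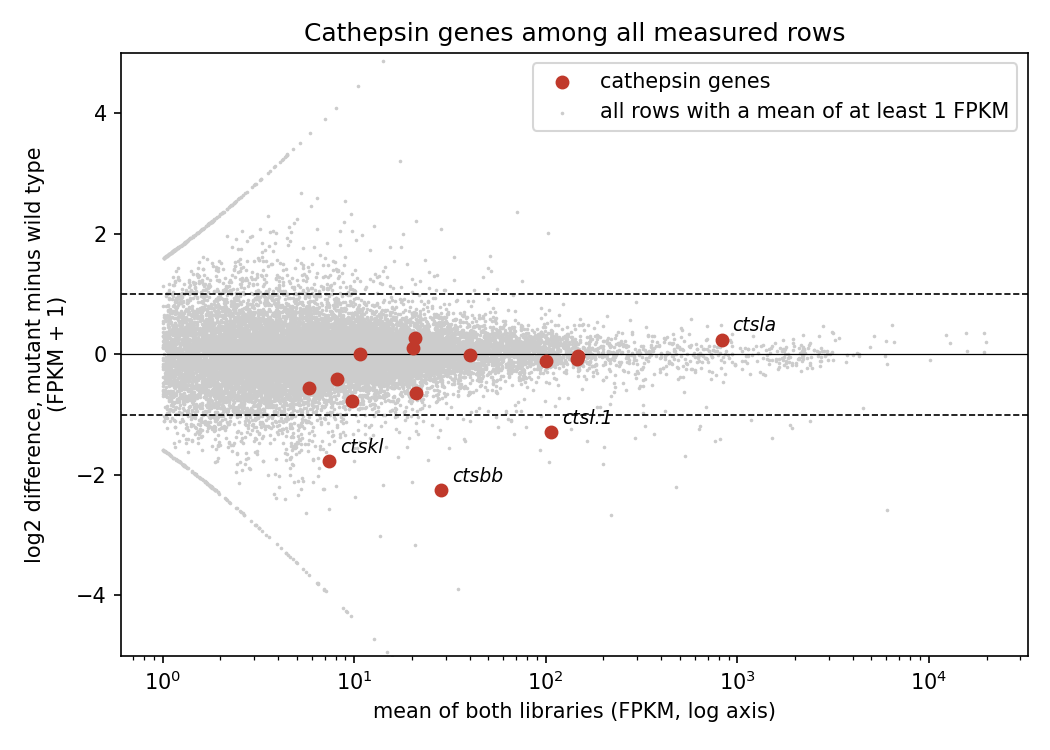
Log2 difference, mutant minus wild type, on FPKM + 1, against the mean level of both libraries in FPKM on a log axis, for the cathepsin genes (red) and all rows with a mean of at least 1 FPKM (grey), with dashed lines at 2-fold. Of the grey rows 11 fall outside the plotted range of -5 to 5, and ctsbb, ctskl and ctsl.1 lie below the lower dashed line.

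Summed over the 15 genes, cathepsin transcripts came to 1488 FPKM in the mutant library and 1521 FPKM in the wild-type library, 0.170% and 0.174% of all FPKM. The near equality of the sums rested on ctsla, which alone made up 60.6% of the cathepsin sum in the mutant and 50.1% in wild type. Without ctsla the sums were 587 FPKM in the mutant and 759 FPKM in wild type, 1.29-fold lower in the mutant. The 3 genes past 2-fold together held 73.7 FPKM in the mutant and 212 FPKM in wild type. Their part in the cathepsin sum was 4.95% in the mutant library and 13.9% in the wild-type library. The other 12 genes, a split made on the difference itself, summed to 1414 FPKM in the mutant and 1309 FPKM in wild type. Without ctsla the other 11 summed to 513 FPKM in the mutant and 547 FPKM in wild type, so the higher sum was that of ctsla.

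**Figure D3:**
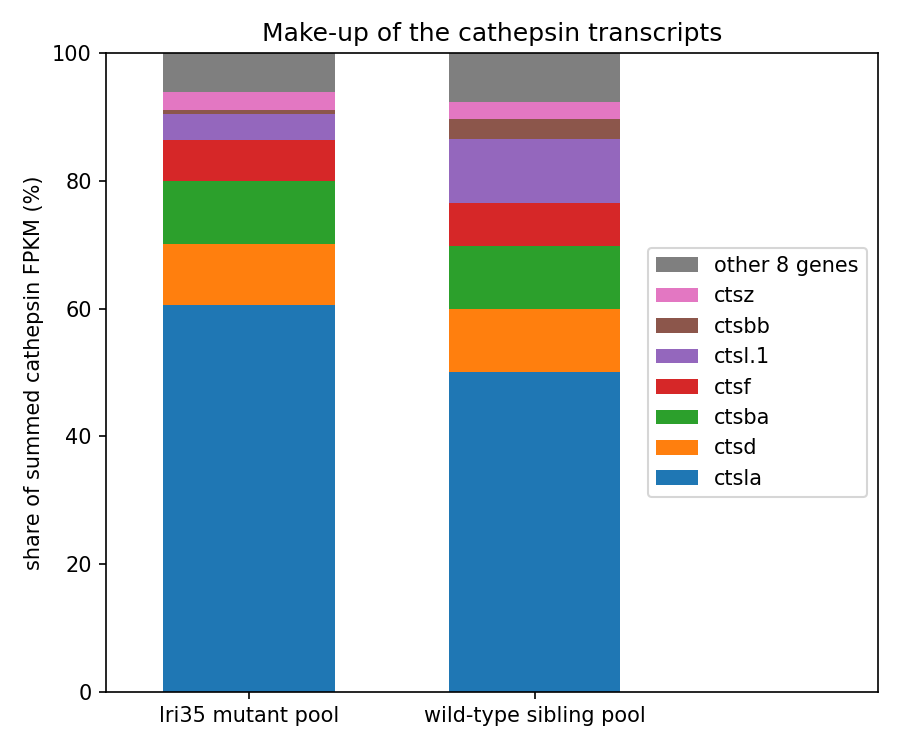
Share of each gene in the summed cathepsin FPKM of the lri35 mutant pool (left bar) and the wild-type sibling pool (right bar), in percent. The share of ctsla is 60.6% in the mutant and 50.1% in wild type, and those of ctsl.1 (4.15% and 10.01%) and ctsbb (0.619% and 3.15%) are smaller in the mutant.

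Ordered by level, both libraries had ctsla first by a wide margin. In the mutant library ctsba, ctsd and ctsf followed, and ctso and ctskl came last. In the wild-type library ctsl.1, ctsd and ctsba followed ctsla at nearly equal levels, and ctssb.1 and ctso came last. Without replicates it cannot be said which neighbours in these orders differ beyond the spread between pools.

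The authors' deposited table tested all 15 genes, as it did 14574 rows of the table. In the authors' deposited table ctsl.1 is called different, at p = 5e-05 and q = 0.0405. It is the only one of the 15 that is called, against 0.124% of all tested rows. The authors' deposited table gives ctsbb, whose difference was larger, p = 0.0009 and q = 0.345, and gives ctskl p = 0.0176 and q = 0.994. These 3 are the genes of the 15 with p under 0.05 in the authors' deposited table, where 2.94% of tested rows have such a p and 1.7% have it and are lower in the mutant library. The next lowest p in the authors' deposited table is that of ctsh, at 0.0806. These p-values compare 1 library with 1 library and hold no measure of the spread between pools.

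A few rows with cathepsin names fell outside the rule. The lowest mean among the 15 genes was that of ctso, at 5.84 FPKM, and the highest among the rows left out for their level was that of a ctslb row, at 0.794 FPKM. That row of ctslb, a cathepsin L gene known from the hatching gland, stood at 0.868 FPKM in the mutant library and 0.719 FPKM in the wild-type library, and the other 2 rows of that name were listed at 0 in both. The genes ctsll (0.597 FPKM in the mutant, 0.367 in wild type) and ctssa (0.583 FPKM in the mutant, listed at 0 in wild type) were also below the limit. On chromosome 12, 10 deposited rows match the cathepsin L-like genes that RefSeq places there (GRCz12tu, used for names only). Of these 10 rows, 6 were listed at 0 in both libraries. The highest value was that of a row of si:dkey-269i1.4, at 2.47 FPKM in the mutant library and 0.765 FPKM in wild type. It alone averaged at least 1 FPKM, was left out for its name and is named after its values were seen. Each other row above 0 in either library was also higher in the mutant. A row named CTSA (1 of 2), in capitals and so outside the rule, stood at 23.5 FPKM in the mutant library and 37.6 FPKM in wild type.

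Genes linked to cathepsins were read from lists matched by symbol, where a gene counts as measured with a mean of at least 1 FPKM. For each list count below, all rows at or above 1 FPKM on average gave 3.22% lower, 2.95% higher and 50.9% below 0. The inhibitor list holds cystatins and related genes such as fetuins and latexin, and whether each inhibits cathepsins was not tested. Of its 12 genes 4 were matched, and all 4 lay within 2-fold with a median log2 difference of -0.28. The secreted cystatin gene cst3 stood at 310 FPKM in the mutant library and 344 FPKM in the wild-type library. The fetuin gene fetub, a liver-secreted member of the cystatin superfamily, stood at 155 FPKM in the mutant and 276 FPKM in wild type. Matching also by gene ID or RefSeq synonym, a choice made after the values were seen, brought in 5 more genes. Among them 1 was at least 2-fold higher in the mutant, a row now assigned to the cystatin gene cst14a.1. The row of cst14a.1, deposited as si:ch211-161h7.6, stood at 14.03 FPKM in the mutant library and 3.90 FPKM in the wild-type library, 3.60-fold higher in the mutant. The row of cst14a.2, deposited as zgc:56530, stood at 37.9 FPKM in the mutant and 22.2 FPKM in wild type, a log2 difference of 0.75 that did not reach 2-fold. The fetuin-type row ahsg, now ahsg1, was the 1 gene at least 2-fold lower, at 1.60 FPKM in the mutant and 4.97 FPKM in wild type, and is named after its values were seen.

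Of the genes that sort cathepsins to the lysosome or process them, 10 had a mean of at least 1 FPKM. Of these 0 were past 2-fold in either direction and 9 lay below 0. Of all rows at that level 3.22% were lower, 2.95% higher and 50.9% below 0, so 0 of 10 past 2-fold is near the shares of all rows. The median log2 difference was -0.21. Legumain, which cleaves several cathepsin precursors in mammals, had its gene lgmn at 190.5 FPKM in the mutant library and 264 FPKM in the wild-type library, a log2 difference of -0.47. The sorting receptor gene sort1a stood at 3.91 FPKM in the mutant and 8.70 FPKM in wild type. By plain ratio it was 2.22-fold lower, though it did not reach 2-fold on the log2(FPKM + 1) scale, and none of the 10 was as much higher. The mannose 6-phosphate receptor gene m6pr stood at 26.3 FPKM in the mutant and 20.6 FPKM in wild type.

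Lysosomal membrane and regulator genes lay around 0. Of 14 measured, 0 were past 2-fold in either direction, near the shares of all rows (3.22% lower and 2.95% higher). The median log2 difference was 0.02. The membrane protein gene cd63 stood at 227 FPKM in the mutant library and 222 FPKM in the wild-type library. The lysosomal calcium channel gene mcoln1a had the highest difference, at 17.4 FPKM in the mutant and 10.6 FPKM in wild type. Of 9 related lysosomal or secreted peptidases, 0 were past 2-fold, with a median of -0.15. The lowest difference of the 9 was that of lgmn, at -0.47. That gene is also on the sorting list and the lysosome-rich enterocyte list, so these lists are not independent. The tripeptidyl peptidase gene tpp1 stood at 13.5 FPKM in both.

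Markers of the cell types that carry cathepsins were also read, and most pancreatic acinar genes reached 2-fold lower levels in the mutant library. Of all rows at or above 1 FPKM on average, 3.22% were lower, 2.95% higher and 50.9% below 0. Of 19 listed pancreatic acinar genes 15 were matched and 14 measured, of which 12 were at least 2-fold lower and 1 higher. The matched genes summed to 3972 FPKM in the mutant and 9671 FPKM in wild type. The 1 higher gene was ptf1a, at 4.01 FPKM in the mutant and listed at 0 in wild type. The gene rbpjl, below the limit, was at 0.248 FPKM in the mutant and also listed at 0 in wild type. Both are named after their values were seen. Lysosome-rich enterocytes are the gut cells that digest proteins in large lysosomes. Of their 8 listed markers 7 were matched and 6 measured, of which 0 were past 2-fold but all 6 lay below 0. Their median was -0.51, and -0.37 for the 8 measured when matched also by gene ID or RefSeq synonym. The genes matched by symbol summed to 447 FPKM in the mutant and 717 FPKM in wild type, none listed at 0. Most of that sum was fabp6, an ileal bile acid binding protein gene, at 230.3 FPKM in the mutant and 415 FPKM in wild type, and lgmn. The endocytic adaptor gene dab2 stood at 12.1 FPKM in the mutant and 14.5 FPKM in wild type. Of 9 measured absorptive enterocyte genes 1 was at least 2-fold lower, the chitinase gene chia.3, and all 9 lay below 0. They summed to 1204 FPKM in the mutant and 1402 FPKM in wild type, with none at 0. Matched also by gene ID or RefSeq synonym, 10 of 11 lay below 0. The exception was the row mtp, now MTTP, at 18.3 FPKM in the mutant and 16.4 FPKM in wild type. The part of these cell types in the lower ctsbb, ctskl and ctsl.1 was not tested.

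Immune and skeletal markers were read in the same way. The 20 listed macrophage and microglia genes gave 17 rows, 14 of them measured, of which 0 were past 2-fold, with a median of -0.12 and sums of 714 FPKM in the mutant library and 868 FPKM in the wild-type library. The low genes csf1ra and spi1b did not reach 2-fold on the log2(FPKM + 1) scale but were past 2-fold lower by plain ratio. The level of csf1ra was 2.33 FPKM in the mutant and 5.13 FPKM in wild type. That of spi1b was 1.86 FPKM in the mutant and 4.17 FPKM in wild type. Both are named after their values were seen, and none of the 14 was as much higher. Of the 14 genes, 9 lay below 0, against 50.9% of all rows. Matched also by gene ID or RefSeq synonym, 11 of 19 macrophage and microglia rows lay below 0, with a median of -0.04. That match added MPEG1 (1 of 3), at 7.74 FPKM in the mutant and 5.16 FPKM in wild type. It also added a row now assigned to ccl34b.1, at 12.6 FPKM in the mutant and 8.38 FPKM in wild type. One row of lcp1 in the macrophage and microglia list was at 0 in both. The sum was mostly apoeb, which other tissues also express, at 664 FPKM in the mutant and 810 FPKM in wild type. Of 9 neutrophil genes 1 was at least 2-fold lower, the carboxypeptidase gene cpa5, and the median was -0.03. The current symbol of the cpa5 row is CPA1, the symbol of a pancreatic carboxypeptidase gene on the acinar list, so the row does not mark neutrophils alone. By plain ratio the low gene mpx, named after its values were seen, was also past 2-fold, at 2.76-fold lower. None of the 9 was as much higher. The gene npsn stood at 8.52 FPKM in the mutant and 5.39 FPKM in wild type. For mmp13a the levels were 24.2 FPKM in the mutant and 16.7 FPKM in wild type. Of the 9 neutrophil genes, 5 lay below 0, against 50.9% of all rows. The sums were 574 FPKM in the mutant and 1057 FPKM in wild type, of which cpa5 made 390.4 and 888 FPKM. Of 5 osteoclast genes 0 were past 2-fold, with a median of 0.13 and sums of 30.8 FPKM in the mutant and 26.5 FPKM in wild type, and acp5a was listed at 0 in wild type. Hatching enzyme genes went both ways. Of 8 listed genes 3 were matched, and both measured ones were at least 2-fold higher in the mutant, with he1a at 35.6 FPKM in the mutant and 11.4 FPKM in wild type, he1b at 8.60 FPKM in the mutant and 1.12 FPKM in wild type, and he2 listed at 0 in both. Matched by gene ID, a row now assigned to hce2l2 stood at 1.52 FPKM in the mutant and 8.03 FPKM in wild type, and one assigned to hce2l1 was listed at 0 in the mutant and stood at 1.85 FPKM in wild type. The choice to name he1b, hce2l2 and hce2l1 came after their values were seen. The vitellogenin genes of the yolk list were all below a mean of 1 FPKM, summing to 1.72 FPKM in the mutant and 1.53 FPKM in wild type.

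**Figure D4:**
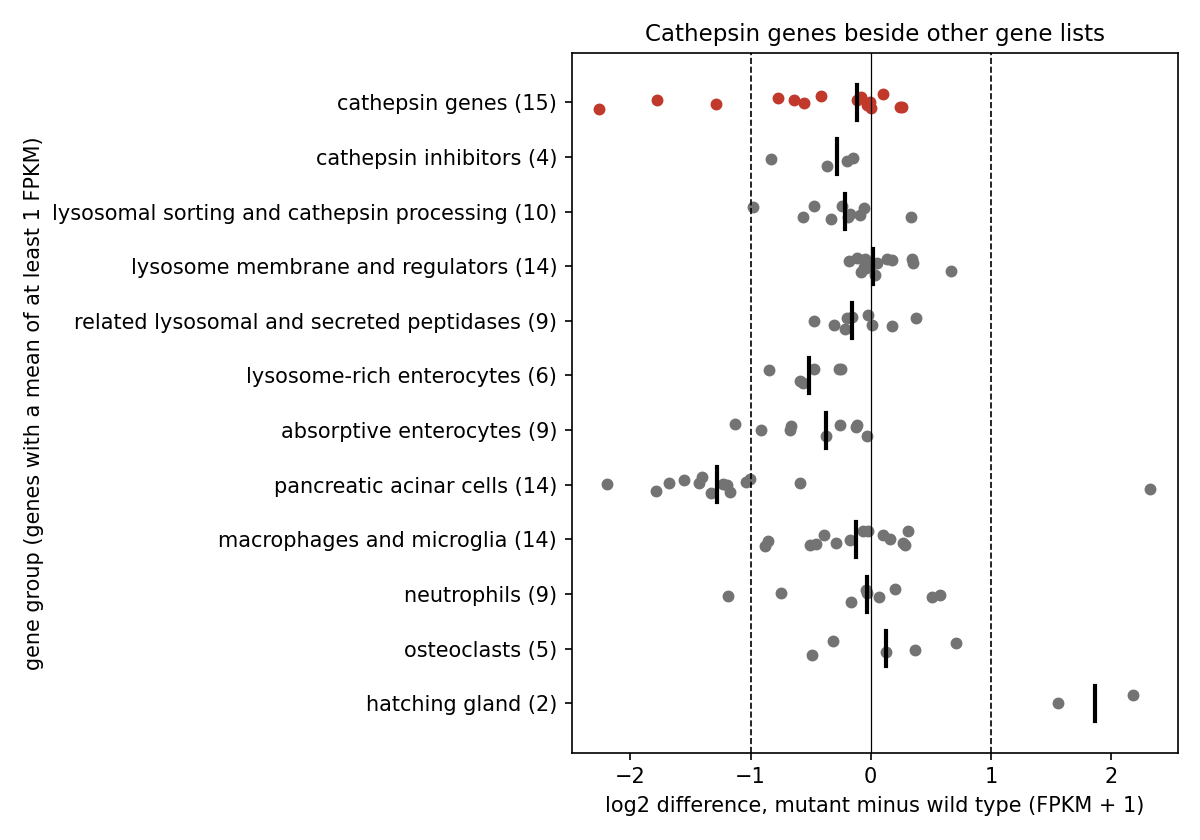
Log2 difference, mutant minus wild type, on FPKM + 1, of the cathepsin genes (red) and of the genes of 11 lists (grey), with the number of measured genes in brackets, a black bar at each median and dashed lines at 2-fold. The acinar genes lie furthest below 0 as a group (median -1.28), the lysosome-rich enterocyte genes all lie below 0 (median -0.51), and the cathepsin genes spread from -2.26 to 0.26.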

How the data were processed

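Whole-larva RNA of 1 mutant and 1 wild-type pool was extracted with a column kit and sequenced from standard Illumina libraries, per the labels' protocols. CASAVA, Bowtie and the Zv9 build are named in the submitters' processing notes, with neither version nor role. For the program behind the table, its gene models and its division of shared reads, details were not given in the sources used here. Deposited values were taken as FPKM from the layout of the table, since no label states their unit. The p-values and q-values are those of the authors' deposited table. Coordinates are as deposited, on Zv9; exons and UTRs are not annotated here. Of the 15 genes, 12 IDs were in the gene name table, and those of ctsbb, ctsc and ctsa were not.

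Relative depth was the mode of the mutant to wild-type ratio over 350 rows with a mean of at most 0.3 FPKM. Without counts, no interval or detection floor can be given. Rows were kept at a mean of at least 1 FPKM, with a pseudocount of 1 FPKM, using pandas 2.3.3 and numpy 2.4.6 in Python 3.11.15. The counting of calls was tested on simulated data with planted shifts well past 2-fold. That checks the counting itself, not calls near 2-fold. All 15 cathepsin genes are named; of each list, among genes averaging at least 5 FPKM, the 2 highest and 2 lowest in difference and the 2 most abundant, could be named, and any other is said to be named afterwards. Of the listed genes, 2 are not reported here and were left out of the list counts. The members and lists were chosen with earlier results of these data known. Alternatives changed the pseudocount, filter, scaling and matching of symbols.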

Additional observations from a re-analysis of the deposited data

How the results depend on the processing

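The count of 3 lower and 0 higher cathepsin genes was the same with pseudocounts of 0.1 and 5 FPKM. It was also the same with rescaling to totals without the 50 most abundant rows or to the upper quartile, and with symbols in any case. A filter at a mean of 5 FPKM and the summing of rows of a symbol left the same 15 genes, so neither could change the count. With no filter the count was the same among 18 genes, where the added rows all averaged under 1 FPKM. All 60 values of single genes under the pseudocounts and scalings stayed on their side of 2-fold, with 4 changes of sign among genes near 0 (ctsc under both scalings, ctsz and ctsba under the first). The median of the cathepsin genes was -0.26 with symbols in any case, which adds CTSA (1 of 2). The ratio of the summed levels, mutant over wild type, was 0.978, and 0.773 without ctsla, a choice made after the data were seen. Matching lists also by gene ID or RefSeq synonym, likewise added, gave 1 gene of the inhibitor list lower and 1 higher. It gave a median of -0.37 for lysosome-rich enterocytes and 10 of 11 absorptive enterocyte genes below 0. For the hatching gland it gave 1 gene lower, with a median of 1.56. No paired analysis was possible because each genotype has 1 library. Without replicates or counts, low genes such as ctskl and ctso carry an unknown counting error.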
